A study of Mus musculus with 5 samples.

Results

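Cxcl10, Ccl9 and Ccl12 are 3 chemokine genes followed here through 21 h of lipopolysaccharide (LPS) in mouse bone marrow-derived macrophages. All probes annotated with exactly these symbols were taken, which gave 1 probe for each gene, so 3 of the 8637 genes and 3 of the 18296 probes measured on every array. The 3 genes were chosen by their changes after LPS on these same arrays, so their values are a description and no test is given. Macrophages of C3H/ARC mice were used throughout, all of them differentiated in vitro with human CSF-1, the growth factor of the lineage. LPS-treated cells had received 10 µg per ml of LPS from S. minnesota for 0.5, 2, 7 or 21 h, and the 0 h cells were left unstimulated. Each time was measured on 1 two-colour array, 5 in all. The other channel of each array held a common reference, total RNA from C57BL6/J whole embryos of day 17.5, so the channels differ in strain as well as in tissue. There are no replicate cultures, and 1 array per time limits the precision.

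Chemokines are small secreted proteins that draw leukocytes along a gradient by binding receptors in the membrane of the target cell. Cxcl10 encodes an interferon-inducible chemokine of the CXC class that binds Cxcr3 on activated T cells and natural killer cells. Ccl9 encodes a CC chemokine of myeloid cells that acts through Ccr1 in the mouse, and Ccl12 encodes a mouse CC chemokine that attracts monocytes through Ccr2. LPS is sensed by Tlr4, whose adaptors activate NF-kappaB and the interferon regulatory factors. Interferon made in response then feeds back on the same cells through STAT factors, which bind interferon-stimulated response elements.

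The promoters of the 3 genes are shown because the genes stood higher after LPS with different time courses. These are the 250 bases before the RefSeq gene start, in build GRCm38.p6, each read along the strand of its gene. Capitals mark matches to motifs searched on both strands: an interferon-stimulated response element core (ISRE, GAAA, any 2 bases, GAAA), an NF-kappaB motif (GGG, any 5 bases, CC), an AP-1 motif (TGANTCA), a C/EBP motif (TTGC, any 2 bases, AA), a GAS motif (TTC, any 3 bases, GAA) and, on the given strand only, a TATA box (TATAAA). Cxcl10 lies on chr5:92348890-92349139, minus strand, Ccl9 on chr11:83578637-83578886, minus strand, and Ccl12 on chr11:82101595-82101844, plus strand.
Cxcl10: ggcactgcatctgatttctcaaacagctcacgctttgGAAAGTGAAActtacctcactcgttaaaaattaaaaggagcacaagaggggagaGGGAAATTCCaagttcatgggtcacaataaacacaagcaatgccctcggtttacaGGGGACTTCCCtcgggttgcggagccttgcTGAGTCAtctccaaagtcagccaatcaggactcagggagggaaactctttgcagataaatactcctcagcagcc
Ccl9: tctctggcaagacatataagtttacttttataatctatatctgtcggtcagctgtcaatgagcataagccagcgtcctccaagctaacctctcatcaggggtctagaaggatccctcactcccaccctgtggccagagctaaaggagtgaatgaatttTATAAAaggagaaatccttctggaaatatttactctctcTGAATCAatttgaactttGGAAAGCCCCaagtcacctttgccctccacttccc
Ccl12: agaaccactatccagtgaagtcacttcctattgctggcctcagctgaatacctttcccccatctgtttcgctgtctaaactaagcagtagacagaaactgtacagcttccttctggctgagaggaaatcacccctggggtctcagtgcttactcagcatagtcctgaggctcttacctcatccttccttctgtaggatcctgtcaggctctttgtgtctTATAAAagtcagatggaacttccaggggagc

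The Cxcl10 promoter held 1 ISRE core, GAAAGTGAAA, from base -213 to -204 relative to the gene start. It also held 3 NF-kappaB matches, of which GGGAAATTCC ended at base -150 and the other two, GGGGACTTCC and GGGACTTCCC, overlap each other between bases -104 and -94, and 1 AP-1 match, TGAGTCA, from base -74. The Ccl9 promoter had 1 NF-kappaB match on the other strand (GGAAAGCCCC, bases -35 to -26), 1 AP-1 match (TGAATCA, bases -53 to -47) and 1 TATA box from base -92. The Ccl12 promoter had only the TATA box, from base -31, among the motifs searched. In the 32851 RefSeq mouse promoters of 300 bases, the ISRE core occurred in 3.44%, the NF-kappaB motif in 50.8%, the AP-1 motif in 7.81%, the C/EBP motif in 10.8%, the GAS motif in 8.30% and the TATA box in 8.32%. The NF-kappaB letters are thus in about every other promoter, while the ISRE letters are rare. A match is a description of letters, and binding was not measured.

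On the arrays, values are log ratios of macrophage over embryo, converted to log2 and given relative to the median probe of each array. The deposited values were read as log10, since neither their base nor their direction is stated in the labels. If they were log2, every log2 value and change below would be 3.32 times too large, while each gene's order of times would stay. The direction rests on cell type markers. The median log2 ratio of the 7 measured macrophage markers lay between 1.34 and 2.09 over the 5 arrays, and that of 20 embryo markers between -1.57 and -1.18, with 0 of the 20 above the array median on any array. The median deposited value per array was 0.0412, 0.0286, 0.0501, -0.0237 and -0.0018 in order of time, and the arrays correlated between 0.631 and 0.878 over probes. Csf1r and Adgre1, which define macrophages, have no measured probe here. Of the 7 measured markers 5 or 6 lay above the array median on each array. Probes fall into 207 runs of 96 consecutive numbers, and 94 runs are called affected because at least 10% of their probes exceeded the 0 h value 2-fold on the 0.5 h or the 2 h array. Inside these affected runs 16.4% of probes were that high at 0.5 h, 27.4% at 2 h, 5.72% at 7 h and 5.07% at 21 h. In the other runs these shares were 1.59%, 4.38%, 5.04% and 3.17%. The contrast at 0.5 h and 2 h follows from how the runs were called. The probes of Cxcl10, Ccl9 and Ccl12 all lie in affected runs, so their 0.5 h and 2 h values are read below beside those of their own runs.

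Cxcl10 had the widest range of the 3 genes. Its log2 ratio to embryo was 0.39 at 0 h, 1.69 at 0.5 h, 4.19 at 2 h, 5.81 at 7 h and 3.89 at 21 h. The unstimulated array was the lowest and the 7 h array the highest, where 7 of the 18296 probes lay above the Cxcl10 probe, while 4487 lay above it at 0 h. Relative to 0 h the gene stood 2.46-fold higher at 0.5 h, 14.0-fold at 2 h, 42.8-fold at 7 h and 11.3-fold at 21 h. At 7 h this was the highest change of all 8637 genes, also under quantile normalization and after centring on the run. It was the second highest when the 0.5 h array was the baseline (rank 2). At 21 h it ranked 6, or 14 against the 0.5 h baseline. No centring and the median over all probes with a value shift all genes alike, so they cannot alter a rank. In these bulk samples a lower ratio cannot tell fewer producing cells from less RNA per cell.

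Ccl9 was the gene of the 3 with the highest ratio before LPS. Its log2 ratio was 1.87 at 0 h, 2.17 at 0.5 h, 3.77 at 2 h, 4.20 at 7 h and 2.14 at 21 h, so the 2 h and 7 h arrays were high and the 21 h array lay close to the unstimulated one. At 0 h the probe lay at percentile 98.7 of all probes, 3.65-fold above embryo relative to the array median. Against 0 h the gene stood 1.23-fold higher at 0.5 h, 3.75-fold at 2 h, 5.03-fold at 7 h and 1.20-fold at 21 h. Quantile normalization, which gives all arrays one distribution, turned the direction at 0.5, 2 and 21 h, with log2 changes of -1.53, -1.10 and -0.36, and kept it at 7 h with 2.03. With centring on the array median the change of Ccl9 ranked 31 among all genes at 7 h and 2210 at 21 h, with 25.6% of genes above it at the later time.

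Ccl12 was the only one of the 3 below the array median in unstimulated cells. Its log2 ratio was -0.55 at 0 h, 0.20 at 0.5 h, 1.25 at 2 h, 0.98 at 7 h and 0.84 at 21 h. The 2 h, 7 h and 21 h arrays were close to one another, and the unstimulated array was the lowest. The changes from 0 h were 1.68-fold, 3.47-fold, 2.89-fold and 2.62-fold in order of time. With centring on the array median they ranked 108 at 7 h and 109 at 21 h among 8637 genes. By this centring Ccl12 kept its place at the late times while Ccl9 did not. The ranks of Ccl12 were 138 and 89 with centring on the run, and 107 and 121 under quantile normalization. Against the 0.5 h baseline they were 447 and 544, with log2 changes of 0.78 and 0.65.

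**Figure D1:**
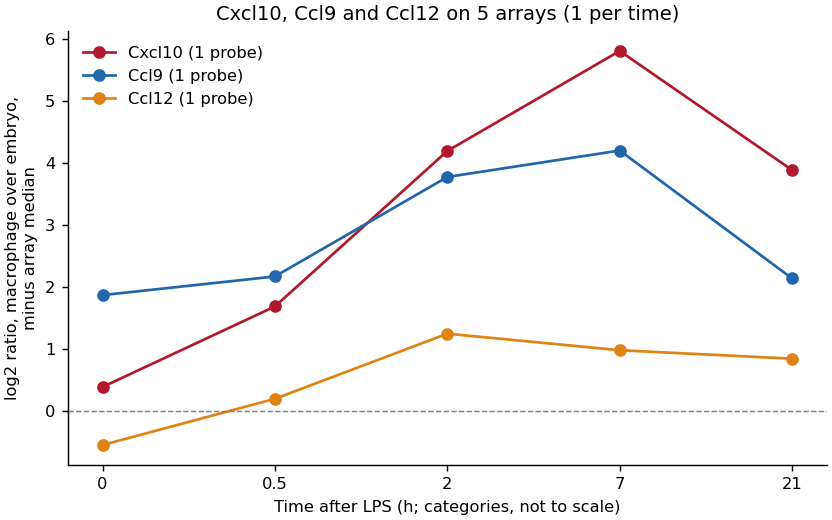
Log2 ratio of macrophage over embryo minus the array median (vertical axis) for the probes of Cxcl10, Ccl9 and Ccl12 at 0, 0.5, 2, 7 and 21 h of LPS (horizontal axis, categories), 1 array per time with no error available. Cxcl10 was highest at 7 h with 5.81. Ccl9 had 3.77 at 2 h and 4.20 at 7 h, and Ccl12 1.25 and 0.98, steps smaller than the SD over probes of 1.38.

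The 3 genes have 1 probe each, so their only yardstick of error is the spread between probes of one gene for other genes. Pooled over the 936 genes with several probes inside affected runs, the SD of a change from 0 h was 0.89 at 0.5 h, 1.29 at 2 h, 0.52 at 7 h and 0.51 at 21 h on the log2 scale. This spread is technical, holds no culture-to-culture variation and was 0.42, 0.55, 0.50 and 0.43 in the other runs. The Cxcl10 change exceeded 1 SD at every time, with 1.30, 3.81, 5.42 and 3.50 on the log2 scale. The Ccl9 changes of 1.91 at 2 h and 2.33 at 7 h exceeded it, and those of 0.30 at 0.5 h and 0.27 at 21 h did not, while under quantile normalization Ccl9 lay above 0 h at 7 h alone. The Ccl12 change of 0.75 at 0.5 h lay within 1 SD, and those of 1.80, 1.53 and 1.39 at 2, 7 and 21 h lay beyond it.

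Steps between neighbouring times separated the 3 time courses. From 0.5 h to 2 h the log2 step was 2.51 for Cxcl10, 1.60 for Ccl9 and 1.05 for Ccl12. With this centring on the array median each was larger than the SD over probes of 0.87 in affected runs. Quantile normalization made these steps smaller, with changes from 0 h of 0.91 and 1.97 for Cxcl10 at 0.5 h and 2 h. The same changes were -1.53 and -1.10 for Ccl9 and 0.72 and 1.39 for Ccl12. From 2 h to 7 h the SD was 1.38, and only the Cxcl10 step of 1.61 exceeded it, while the Ccl9 step of 0.43 and the Ccl12 step of -0.27 did not. Whether Ccl9 and Ccl12 were highest at 2 h or at 7 h therefore cannot be read from these arrays. From 7 h to 21 h the SD was 0.41. Over this interval Cxcl10 and Ccl9 dropped by 1.92 and 2.06, to 0.264 and 0.239 of the 7 h ratio, and the Ccl12 step was -0.14, within the SD. Of all the steps this late one rests on the smallest spread. The runs of the 3 genes still held probes at least 2-fold higher than at 0 h on both its arrays. In the run of Cxcl10 these were 11.6% of the other probes at 7 h and 12.8% at 21 h.

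Each probe was also set beside the other probes of its own run. In the run of Cxcl10, 25.6% of the other 86 probes were 2-fold or more higher at 0.5 h, and 17 lay at or above Cxcl10, whose change is thus inside what its run showed at that time. At 2 h 2 probes of that run lay above it, and at 7 h and 21 h none did. The next highest at these late times were 2.91 and 2.60, against 5.42 and 3.50 for Cxcl10. Of the other 86 probes 30.2% stood at least 2-fold higher at 2 h, 11.6% at 7 h and 12.8% at 21 h. In the runs not called affected the share was 5.04% at 7 h and 3.17% at 21 h. Ccl9 lay in a run with few high values at 0.5 h (3.33% of the other 90 probes), 15.6% at 2 h, 14.4% at 7 h and 6.67% at 21 h. Ccl9 was placed 21, 7, 3 and 23 of 91 in order of time. Ccl12 was placed 11, 6, 2 and 3 of 88, in a run where 10.3%, 13.8%, 8.05% and 4.60% of the other probes stood at least 2-fold higher.

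The nearest probe numbers, taken after seeing the data as the measured ones within 5 on either side, had small changes in the middle. Around Cxcl10 the median change of the 8 neighbours was 0.28, 0.22, 0.27 and 0.05 in order of time, with 3 of 8 at least 2-fold higher at 0.5 h and at 2 h, 0 at 7 h and 1 at 21 h. Around Ccl9 the 8 neighbours had medians of 0.08, 0.22, 0.10 and -0.10, and 1 of them was at least 2-fold higher, at 2 h. Around Ccl12 the 9 neighbours had medians of 0.31, 0.44, 0.15 and 0.16, and at each time 1 of the 9 stood at least 2-fold higher. This was the same probe each time, the last measured one before Ccl12. Its changes of 1.18, 2.52, 2.83 and 3.30 lay above those of Ccl12 at every time. When each array was centred on the run instead of on the array, the changes were 0.89, 3.30, 5.49 and 3.49 for Cxcl10, 0.33, 1.84, 2.29 and 0.35 for Ccl9, and 0.51, 1.53, 1.41 and 1.47 for Ccl12. The 2 h changes of all 3 genes were at least 1.53 on the log2 scale, but this centring removes only what the whole run shares. At 2 h the other probes of the 3 runs had median changes of 0.33, 0.03 and 0.22. Of these probes 30.2%, 15.6% and 13.8% were at least 2-fold higher. Whether the 2 h changes of the 3 genes are part of that excess was not tested.

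**Figure D2:**
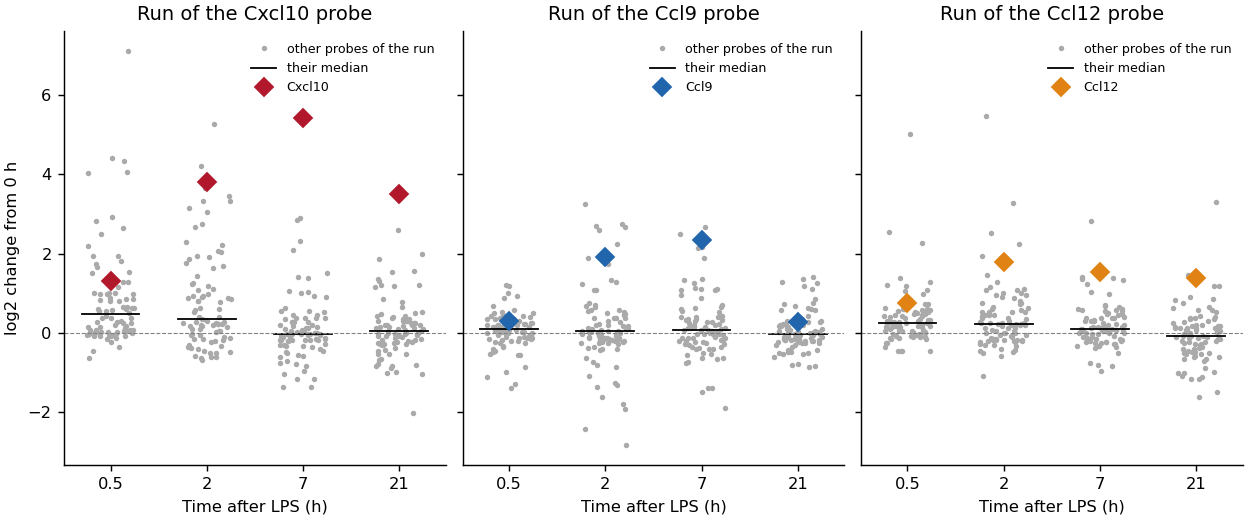
Log2 change from 0 h (vertical axis) at 0.5, 2, 7 and 21 h (horizontal axis) of the probes that share a run of 96 consecutive numbers with Cxcl10, Ccl9 or Ccl12. Grey points are the other probes of the run, black bars their median, and diamonds the named gene, with Cxcl10 at 5.42 above every other probe of its run at 7 h.

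Among other chemokine ligands the array measured few of the LPS-responsive ones. Of 41 ligand genes 19 had a probe with values on all arrays, and Ccl2, Ccl3, Ccl4, Ccl7, Cxcl1, Cxcl2, Cxcl9 and Cxcl11 are among the 22 not analysed here. At 7 h, Cxcl10, Ccl9 and Ccl12 were the ligands at least 2-fold higher, 3 of 19, and 0 were lower, beside 4.08% higher and 3.16% lower among all 8637 genes. At 21 h these were Cxcl10 and Ccl12, 2 of 19, with 0 lower, beside 3.05% and 1.45% of all genes. At 0.5 h, 3 of 19 were higher (Cxcl10, Cxcl15 and Ccl25) and 1 lower, beside 5.95% and 1.01%. At 2 h, 7 of 19 were higher and 0 lower, beside 12.4% and 1.1%. Since the 3 genes were picked for these changes, nothing is read from their share.

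The 16 remaining ligands stayed within 2-fold of 0 h at the late times, from -0.87 to 0.99 on the log2 scale at 7 h and from -0.95 to 0.85 at 21 h. Their median change was 0.27 at 7 h and 0.28 at 21 h, against -0.000287 and 0.02 over all genes. Ccl11, which encodes an attractant of eosinophils, had the highest of these at 7 h, 0.99, and a log2 ratio that stayed below the array median at every time (-1.01 at 0 h, -0.02 at 7 h). Pf4, encoding platelet factor 4, had log2 ratios of 1.28 at 0 h, 1.50 at 0.5 h, 1.66 at 2 h, 1.62 at 7 h and 2.07 at 21 h, high before LPS and on every array. Ccl5, which attracts T cells, had changes of 0.33, 0.10, 0.00 and 0.33 on a probe outside the affected runs. Ccl24, an eosinophil attractant, had the lowest changes, -0.87 at 7 h and -0.95 at 21 h.

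At 2 h the 4 ligands other than Cxcl10, Ccl9 and Ccl12 that stood at least 2-fold higher were Cxcl15 (2.31), Ccl25 (1.41), Cxcl17 (1.27) and Ccl6 (1.26). All of them have probes in affected runs, and none was 2-fold higher at 7 h or 21 h, where they lay between -0.62 and 0.40. Of the 12 ligands with a probe outside the affected runs, 0 were at least 2-fold higher by those probes at any time. Only 1, Cxcl12, was lower at 0.5 h (-1.07). Among all 5996 genes with such probes, 77, 253, 271 and 153 were higher in order of time, and 59 were lower at 0.5 h. Runs were called affected by their high values at 0.5 h and 2 h, so few such values remain outside them by definition. Ccl6, a CC chemokine of myeloid cells, was measured by 7 probes, 6 of them in affected runs, with log2 changes of 0.95 ± 0.81, 1.26 ± 1.28, 0.20 ± 0.62 and -0.26 ± 0.32 in order of time (SD over probes). Its 2 h change is no larger than the spread of its probes.

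**Figure D3:**
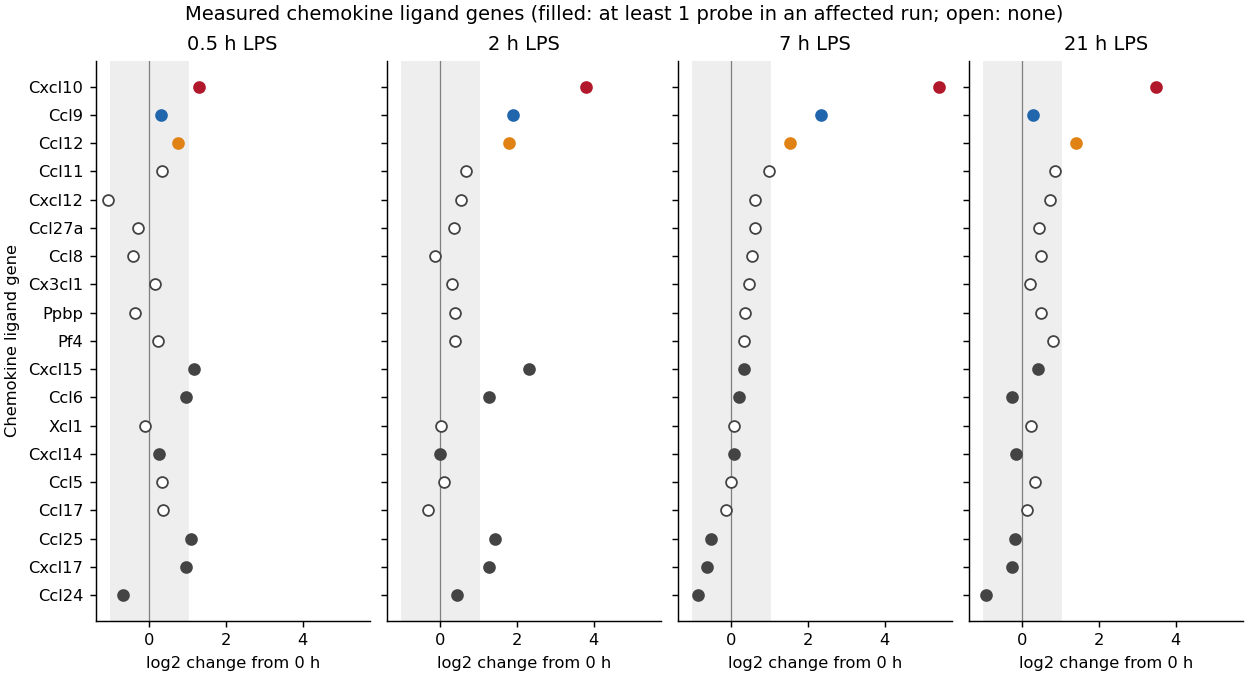
Log2 change from 0 h (horizontal axis) of the 19 measured chemokine ligand genes (vertical axis, ordered by the 7 h change) at 0.5, 2, 7 and 21 h of LPS. The grey band spans less than 2-fold, and filled points have at least 1 probe in an affected run. Cxcl10, Ccl9 and Ccl12 are the points beyond the band at 7 h.

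The 3 genes sit beside other chemokine genes on the chromosome. On chromosome 11 Ccl9 lies between Ccl5 and Ccl6 in the order of chemokine genes of GRCm38.p6. Ccl5 and Ccl6 had changes of 0.00 and 0.20 at 7 h, against 2.33 for Ccl9. Ccl12 lies between Ccl11 and Ccl8, which had changes of 0.99 and 0.54 at 7 h and 0.85 and 0.49 at 21 h, against 1.53 and 1.39 for Ccl12. On chromosome 5 the span of Art3, which encodes an ADP-ribosyltransferase family member, covers Cxcl10, and Art3 had changes of 0.13, -0.56, -0.13 and -0.04, so the high values of Cxcl10 were not seen on its probe. Other genes within 100 kb of Cxcl10 were high at 2 h, with changes of 2.21 for Nup54, 1.52 for Naaa and 1.52 for Scarb2. At 7 h these were -0.43, 0.41 and -0.05. Sdad1, the remaining measured gene there, had 0.28 at 2 h and 0.35 at 7 h. Related chemokine transcripts could hybridise to one cDNA probe, and this was not tested.

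Of 24 genes for chemokine receptors, decoy receptors and the chemokine-cleaving peptidase Dpp4, 3 were measured, and Cxcr3, Ccr1 and Ccr2, the receptors of Cxcl10, Ccl9 and Ccl12, were not analysed here. Ccrl2, a chemokine receptor-like protein that binds chemerin, had log2 ratios of 0.87 at 0 h, 2.39 at 0.5 h, 3.60 at 2 h, 3.68 at 7 h and 3.16 at 21 h, on a probe outside the affected runs. It was the 1 of the 3 at least 2-fold higher at each time, up to 7.05-fold at 7 h, beside 5.95%, 12.4%, 4.08% and 3.05% of all genes in order of time. Under quantile normalization 0 of the 3 were 2-fold higher at 0.5 h and at 2 h, and against the 0.5 h array 0 were at 21 h. Ccr7, the receptor that guides cells to lymph nodes, and the decoy receptor Ackr1 had log2 changes between -0.14 and 0.56.

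Genes on the route from Tlr4 and the interferon receptors to these promoters were measured for 18 of 45. At 0.5, 2, 7 and 21 h 3, 4, 4 and 2 of the 18 stood at least 2-fold higher, beside 5.95%, 12.4%, 4.08% and 3.05% of all genes, and 0 lower, beside 1.01%, 1.1%, 3.16% and 1.45%. Their median changes were 0.23, 0.54, 0.49 and 0.03. By probes outside the affected runs, 2, 2, 2 and 1 of 13 stood at least 2-fold higher, beside 77, 253, 271 and 153 of all 5996 genes there. The interferon regulatory factor Irf7 had the largest change at 7 h, 2.24 ± 0.49 (SD over 2 probes), after 1.35 ± 1.33 at 2 h and before 1.74 ± 0.25 at 21 h. Stat2, a subunit of the factor that binds ISREs, had changes of -0.14, 0.04, 2.17 and 1.27, so its values were high only at the late times. Its 1 probe lies in the affected run that also holds the Ccl9 probe. Irf9, which forms that factor with Stat2, had 0.05, 0.91, 0.96 and 0.76. Nfkbia, the inhibitor of NF-kappaB and its target, had 1.35, 0.79, 1.73 and 0.82, and the related inhibitor Nfkbib had 0.83, 2.23, 1.27 and 0.56, with an SD over 2 probes of 3.19 at 2 h. Irf1, which binds ISREs, had 1.03, 1.71, 0.84 and 0.43 on a probe outside the affected runs, with its highest value at 2 h. At 7 h the kinase gene Tbk1 had a change of 0.66 and Ikbkg, encoding a subunit of the kinase that releases NF-kappaB, 0.84.

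The genes with the most similar time courses were taken as the 6 with the smallest root mean square difference from each chemokine over the changes at 0.5, 2, 7 and 21 h. All these changes share the 0 h array. For Cxcl10 they were Rsad2 (difference 0.77), Ifit1 (0.85), Il1a (0.998), Ifi204 (1.38), Saa3 (1.51) and Ccrl2 (1.53). Of these Rsad2, Ifit1 and Ifi204 are known interferon-response genes, Il1a encodes a cytokine, and Saa3 an acute-phase protein. All probes of Rsad2, Ifit1, Il1a and Saa3 lie in affected runs, as that of Cxcl10 does. Those of Ifi204 and Ccrl2 lie outside them. At 7 h Cxcl10 stood at 5.42 and the highest of these 6, Il1a, at 5.21. At 21 h Cxcl10 stood at 3.50 and Il1a at 5.42. Over 7 h and 21 h alone the nearest were Ifit1, Rsad2, Il1a, Cfb, Ifi204 and Fgl2, so Ifit1, Rsad2, Il1a and Ifi204 were near by both measures.

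For Ccl9 the nearest genes were Sdc4 (0.20), Pla2g4a (0.26), Dram1 (0.28), Efhb (0.40), Klf1 (0.48) and Srgn (0.48). Sdc4, a cell surface heparan sulfate proteoglycan, had changes of 0.45, 2.24, 2.47 and 0.37 in order of time, and Pla2g4a, the phospholipase that releases arachidonic acid, had 0.53, 1.87, 1.89 and 0.39. The probes of Pla2g4a, Dram1 and Efhb lie outside the affected runs. Over 7 h and 21 h alone Sdc4 was again the nearest (0.12), followed by Hcar2, Slamf9, Pla2g4a, Dram1 and Ifrg15.

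For Ccl12 the nearest were Cidec (0.14), Cdc42ep2 (0.16), Pde4b (0.17), Mettl26 (0.17), Zkscan14 (0.20) and Tinagl1 (0.22). Pde4b, a phosphodiesterase that degrades cyclic AMP, had changes of 0.58, 1.76, 1.68 and 1.14 on a probe outside the affected runs, where that of Zkscan14 also lies. Over 7 h and 21 h alone the nearest were Dst, Mettl26, Rrbp1, Fcgr1, Sorbs2 and Cidec. The 3 chemokines themselves were less alike. Ccl12 was place 64 of 8636 for Ccl9 (0.73), and Ccl12 and Ccl9 were places 47 and 53 for Cxcl10 (2.45 and 2.48).

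Promoters were in the RefSeq table for 5 of the 6 nearest genes of each chemokine. The ISRE core was found for 3 of 5 near Cxcl10 (Rsad2, Ifit1 and Saa3), for 1 of 5 near Ccl9 (Srgn) and for 0 of 5 near Ccl12, beside 3.44% of all promoters. The NF-kappaB motif was found for 3, 3 and 5 of 5, beside 50.8% of all promoters, and the AP-1 motif for 2, 0 and 2, beside 7.81%. Some genes have more than 1 promoter in the table, and a match in any was counted. The 5 genes had 7 promoters near Cxcl10, 7 near Ccl9 and 10 near Ccl12, so these counts per gene and the shares per promoter differ in what they count.

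**Figure D4:**
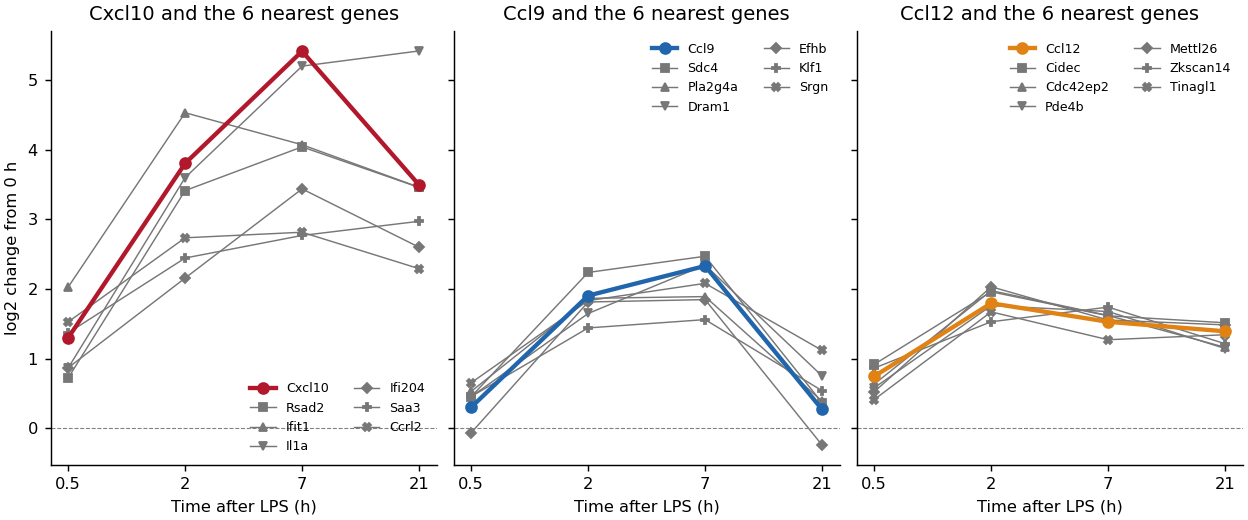
Log2 change from 0 h (vertical axis) at 0.5, 2, 7 and 21 h (horizontal axis) of Cxcl10, Ccl9 and Ccl12 (coloured) and the 6 genes with the smallest root mean square difference from each (grey, 1 symbol per gene). The grey lines of Ccl9 and Ccl12 differ from the coloured one by up to 0.48 and 0.22 (root mean square), and those of Cxcl10 by 0.77 to 1.53.

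Under quantile normalization Ccl9 was higher than at 0 h only at 7 h. Its probe lay at percentile 98.7 of all probes at 0 h, 94.8 at 0.5 h, 96.6 at 2 h, 99.8 at 7 h and 98.3 at 21 h, and this normalization uses that rank alone. Cxcl10 had 0.91, 1.97, 6.84 and 4.99 and Ccl12 0.72, 1.39, 1.76 and 1.60 under the same normalization, higher than at 0 h at each time. With the 0.5 h array as the baseline the 7 h changes were 4.12 for Cxcl10, 2.03 for Ccl9 and 0.78 for Ccl12. The 7 h value of Ccl9 kept between 2.03 and 2.33 under all 5 alternatives.

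**Figure D5:**
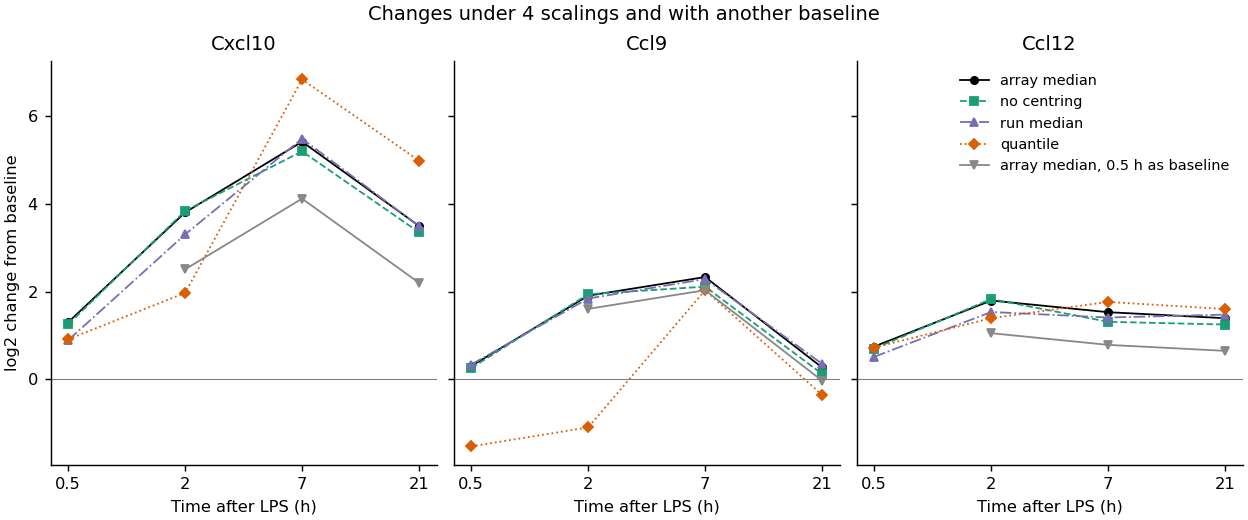
Log2 change (vertical axis) of Cxcl10, Ccl9 and Ccl12 at 0.5, 2, 7 and 21 h (horizontal axis) with centring on the array median, no centring, centring on the run, quantile normalization, and the 0.5 h array as baseline. Quantile normalization puts Ccl9 at -1.53 and -1.10 at the early times and at 2.03 at 7 h.

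Marker genes of other cells that a marrow culture could hold were summed as ratios to embryo. The 3 measured T and NK cell markers of 12, Cd3g, Nkg7 and Gzma, gave 2.81 at 0 h and 3.72, 4.12, 3.86 and 3.26 at 0.5, 2, 7 and 21 h. The 3 measured B cell markers of 7 gave 1.96 at 0 h and 3.92, 3.27, 3.06 and 2.88 after LPS. Both lymphocyte sums were lowest at 0 h. Their highest values rest largely on 1 marker each. The highest T and NK cell marker had a log2 ratio of 1.35 at 2 h, and the highest B cell marker 1.52 at 0.5 h. In each case only 1 of the 3 lay above the array median. The 6 measured neutrophil markers of 10 gave 8.68 at 0 h and 9.68, 9.86, 9.97 and 5.65 after LPS. The 2 measured dendritic cell markers of 7 gave 2.03 at 0 h and 2.60, 2.38, 2.02 and 2.30 after LPS. Mast cell markers, 3 of 6, gave 2.97 at 0 h and 3.07, 2.74, 1.37 and 2.72 after LPS, and the 9 stromal and endothelial markers 5.18 at 0 h and 15.2, 30.3, 4.48 and 5.34. The high stromal sums rest mostly on the highest marker, with log2 ratios of 3.52 at 0.5 h and 4.72 at 2 h. The median of the 9 was -0.88 at 0 h, -0.95 at 0.5 h and -1.17 at 2 h, with 1, 2 and 3 above the array median. The part of any of these cell types in the chemokine values was not tested.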

How the data were processed

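Two-colour cDNA array values were taken as log10 ratios per probe, as deposited by the authors. How the authors normalized them is not stated in the labels or the file, and base and direction were inferred from the values and marker lists. Spot intensities were not used here, so background and saturation are unknown. Of 19828 probes, 14759 had exactly 1 symbol in the 2008 platform annotation, 170 several, and 4899 were unlisted. Entrez identifiers updated 14628 to GRCm38.p6 symbols. Values were multiplied by 3.32, centred on the array median of the 18296 probes complete across the 5 arrays, and the 13782 named ones averaged per symbol. Changes are differences from the 0 h array. With 1 array per time there is no test, and 2-fold was used as a rule of size. Genes named are the 3 members, measured chemokine ligands and receptors, the 8 regulators with the largest 7 h change, the 6 nearest genes of each member, and neighbours on the chromosome, which were added after their values were seen. The members and lists were chosen with earlier results of these data known. Promoter sequences came from RefSeq, where all 3 members matched. A planned protein comparison was not run. Scripts (Python 3.11.15, pandas 2.3.3, numpy 2.4.6) were tested on simulated data. Alternatives were no centring, quantile normalization, centring on runs, another median, leaving out affected runs and the 0.5 h baseline.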

Additional observations from a re-analysis of the deposited data

How the results depend on the processing

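Of 57 values of the 3 genes under the alternatives, 45 moved by less than the SD over probes of one gene, 8 moved by more and 4 changed sign. This SD was taken over the probes of all runs and was 0.67, 0.97, 0.51 and 0.47 in order of time. The 45 include all values under no centring and under the other median, which shift all genes alike by less than this SD. Quantile normalization gave Ccl9 changes of -1.53 at 0.5 h, -1.10 at 2 h and -0.36 at 21 h, and Cxcl10 changes of 1.97, 6.84 and 4.99 at 2, 7 and 21 h. The 0.5 h baseline gave Cxcl10 2.51, 4.12 and 2.20 at 2, 7 and 21 h, Ccl12 0.78 and 0.65 at 7 and 21 h, and Ccl9 -0.032 at 21 h. The median over all probes with a value and no centring changed no sign of the 3 genes.

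Ligands at least 2-fold higher numbered 0 at 0.5 h and 3 at 2 h under quantile normalization, and 1 and 4 with centring on runs. Without affected runs they numbered 0 of 12 at each of the 4 times, beside 77, 253, 271 and 153 of all 5996 genes. None of Cxcl10, Ccl9 and Ccl12 is among those 12. Lower ligands numbered 2 at 0.5 h with centring on runs, 1 at 7 h and 1 at 21 h without centring, 2 at 2 h and 1 at 21 h under quantile normalization, and 2 at 7 h and 3 at 21 h against 0.5 h. Receptors higher numbered 0 at 0.5 h and at 2 h under quantile normalization and 0 at 21 h against 0.5 h. The cause of these shifts was not tested. Without centring, the median change of all genes was -0.22 at 7 h and -0.12 at 21 h. Among all genes at 7 h, 352 stood 2-fold higher and 273 lower. Leaving out the centring gave 220 and 510, quantile normalization 417 and 516, and the 0.5 h baseline 235 and 709. At 21 h the counts were 263 and 125, and these alternatives gave 190 and 222, 324 and 391, and 195 and 627. At 0.5 h and 2 h, 514 and 1071 were higher and 87 and 95 lower, against 240 and 430 higher and 298 and 395 lower under quantile normalization. No paired analysis was possible because each time has 1 array.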
